A study of Sus scrofa with 12 samples.

Results

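The genes of pre-mRNA splicing factors were followed through calcification of cultured pig valve cells and after treatment with KPT. They were chosen by symbol alone, as the rows of the gene table named for SR proteins (SRSF and TRA2), CLK kinases, hnRNP proteins, the SF3A and SF3B subunits, SNRP proteins, PRPF factors, U2AF, RBM proteins or LSM proteins. The rule took 82 of the 22861 genes, and no measured value entered it. The cells were porcine aortic valve interstitial cells (Sus scrofa), fibroblast-like cells that populate the leaflets, grown on glass, which the labels name as the calcification stimulus, in DMEM for up to 12 days. The 4 groups of 3 libraries were Stage 1 (day 5), Stage 2 (day 8), Stage 3+KPT, which received KPT at Stage 3, and Stage 3+DMSO, which received DMSO at Stage 3. The labels call the 3 libraries of a group biological replicates without naming the animals they came from, and the p-values therefore refer to the spread among these samples, which may be technical. They give no genotype or age of the pigs, no fuller name for KPT, and neither its dose nor the time of exposure.

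Introns are removed from pre-mRNA by the spliceosome, which is assembled anew on each intron from small nuclear ribonucleoproteins (snRNPs). The U1 snRNP recognises the 5 prime splice site, the U2 snRNP with its SF3A and SF3B proteins recognises the branch point, and the PRPF factors act mostly with the U4/U6.U5 tri-snRNP and in the catalytic steps. SR proteins mostly promote and hnRNP proteins mostly oppose the use of nearby exons, and the CLK kinases phosphorylate SR proteins. Many genes of SR and hnRNP proteins are known to limit their own mRNA through exons that direct it to decay.

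Expression was measured as RPKM, reads scaled by exon length and by the size of the library. Levels of different genes can be set side by side only roughly, since a long annotated exon with low values lowers that of its gene. The library totals that the deposited values imply were 13188023 to 24724019. A gene was tested if it had at least 1 RPKM in at least 3 libraries, which 78 of the 82 splicing factor genes and 13046 genes in all did. Replicates of a group correlated across the 78 genes, which are not independent of each other, with r from 0.994 to 0.998, and the median coefficient of variation of a gene was 4.22% to 6.38% in the 4 groups. The 4 genes below the filter were RBM20, RBM24, RBM46 and RBM47, with at most 0.195 RPKM in any library. Fibroblast markers were measured in full, with 10 of 10 tested, whereas 7 of 8 cardiomyocyte markers were below 1 RPKM in every library. Of the endothelial markers 4 of 8 were tested, and VWF, TEK and KDR were below 1 RPKM in every library. The summed level of the endothelial list was 61.6 to 64.8 RPKM at Stage 1, 61.8 to 68.4 RPKM at Stage 2, 32.7 to 38.5 RPKM in Stage 3+KPT and 65.7 to 83.8 RPKM in Stage 3+DMSO. Of the leukocyte markers 3 of 8 were tested, ITGAM was at 0 in every library, and PTPRC, CD3E, AIF1 and CSF1R were below 1 RPKM in every library. The leukocyte list summed to 247 to 286 RPKM at Stage 1, 279.97 to 307 RPKM at Stage 2, 269 to 308 RPKM in Stage 3+KPT and 237 to 279 RPKM in Stage 3+DMSO, nearly all of it from CD79A.

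Levels spanned more than 2 orders of magnitude. HNRNPA2B1 and HNRNPA1, which bind pre-mRNA and favour exon skipping, were the most abundant, with means over the 12 libraries of 581 and 390.02 RPKM. The row of HNRNPA2B1 holds a single exon of 1062 bases, and how reads shared with copies of such a gene were counted is not given, so its level is uncertain. SF3B1, the SF3B subunit that clasps the branch point, averaged 245 RPKM. Among the 82 genes, RBM39, SRSF9, SNRPE, PRPF19, LSM7 and CLK3 were the most abundant of their own groups, at 184, 179, 136, 82.4, 58.6 and 35.2 RPKM. RBM3 and CLK1, in rows without a name in the gene table and so outside the 82, averaged more, at 277 and 68.0 RPKM. At the low end, RBM38, a regulator of muscle and blood cell splicing, averaged 2.44 RPKM and rested on as few as 36 reads in a library.

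**Figure D1:**
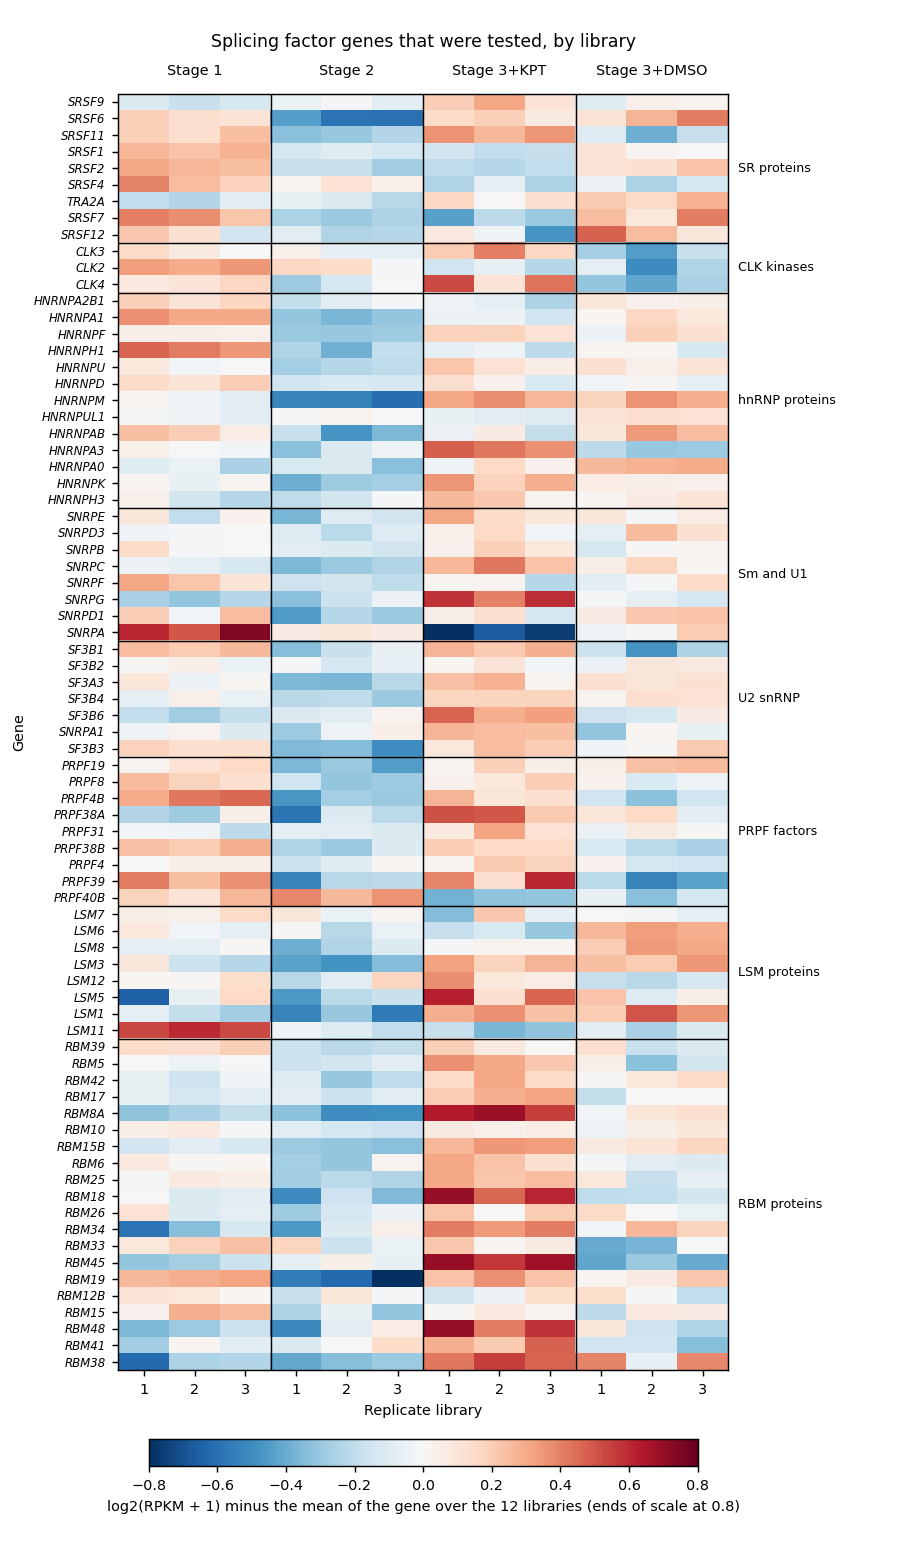
Level of 77 tested splicing factor genes (rows, grouped by role and ordered by abundance) in the 12 libraries (columns, replicates 1 to 3 of each group), as log2(RPKM + 1) minus the mean of the gene over all libraries. All Stage 2 columns lie below those of Stage 1 and Stage 3+DMSO for 9 of 13 hnRNP genes and 4 of 8 Sm and U1 genes, and many RBM and PRPF genes are reddest in the Stage 3+KPT columns.

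Most splicing factor genes that changed at Stage 2 were lower than at Stage 1. By limma on log2(RPKM + 1), with Benjamini-Hochberg adjustment over all tested genes and calls at an adjusted p under 0.05, 39 of 78 fell and 1 rose, against 24.4% of all tested genes lower, 16.3% higher and 40.7% called in either direction. Their median log2 fold change was -0.21, against -0.05 over all tested genes. The groups of libraries did not overlap for 50 of the 78 genes, and for 52.5% of all tested genes. The largest change in size was -0.95 on the log2(RPKM + 1) scale. The added 1 RPKM makes this smaller than the ratio of the RPKM means. After median-ratio rescaling or quantile normalization, 32 genes were lower, against 20.6% and 20.3% of all tested genes. In such bulk samples, fewer cells of a type and less RNA per cell cannot be told apart. Proliferation markers moved with this comparison, with a summed level of 127 to 139 RPKM at Stage 2 against 325 to 361 RPKM at Stage 1 (10 of 10 tested genes lower). The fibroblast markers summed to 27894 to 29077 RPKM at Stage 2 against 20472 to 21376 RPKM at Stage 1 (8 of 10 tested genes higher and 0 lower). The part of both lists in the result was not tested.

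Among the SR proteins, 6 of 9 fell and none rose. SRSF6 (ENSSSCG00000007362, chr17:51512995-51516682), which binds exonic enhancers, had 125, 113 and 113 RPKM at Stage 2, against 195, 187 and 184 RPKM at Stage 1 (log2 fold change -0.69, SE 0.08, adjusted p = 2.49e-05). SRSF7 (ENSSSCG00000008484, chr3:107748915-107754802), a shuttling SR protein that also acts in mRNA export, had 32.2, 31.3 and 32.3 RPKM at Stage 2, against 51.5, 50.2 and 45.3 RPKM at Stage 1 (log2 fold change -0.60, SE 0.09, adjusted p = 0.000234). In both genes every Stage 2 library lay below every Stage 1 library. SRSF1 and SRSF2, the classical SR proteins, were lower by a similar step, with log2 fold changes of -0.38 and -0.48, and SRSF11 had one of -0.48. SRSF4 was called at -0.22, adjusted p = 0.0429, a call lost without Stage 2 replicate 1, 2 or 3 or Stage 1 replicate 1 or 2 or replicate 1 of every group (adjusted p = 0.0557 to 0.218). TRA2A, which binds GA-rich enhancers, had 38.4, 37.0 and 34.2 RPKM at Stage 2 and 34.9, 34.0 and 37.6 RPKM at Stage 1, with overlapping libraries. SRSF9 had 172, 177 and 167 RPKM at Stage 2 and 164, 157 and 163 RPKM at Stage 1, without overlap, and neither gene passed the test. None of the 3 CLK kinases with a named row passed the test at Stage 2.

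Among the hnRNP proteins 9 of 13 fell and none rose, with a median log2 fold change of -0.29. HNRNPA1 (ENSSSCG00000000288, chr5:20329597-20333769) had 309.7, 298 and 309.5 RPKM at Stage 2, against 495, 475 and 476 RPKM at Stage 1 (log2 fold change -0.65, SE 0.05, adjusted p = 3.96e-06). HNRNPH1, which binds G-runs, had 254, 229 and 262 RPKM at Stage 2, against 415, 401 and 382 RPKM at Stage 1 (log2 fold change -0.68, SE 0.07, adjusted p = 1.44e-05). HNRNPM (ENSSSCG00000013602, chr2:71180163-71225240), a regulator of exon skipping, had 121, 119 and 114 RPKM at Stage 2, against 176, 169.996 and 165 RPKM at Stage 1 (log2 fold change -0.52, SE 0.06, adjusted p = 3.08e-05). Stage 2 libraries lay below Stage 1 libraries for each of them. HNRNPAB, HNRNPF, HNRNPK, HNRNPD and HNRNPU fell by 0.50, 0.34, 0.31, 0.29 and 0.25 on the log2 scale, and HNRNPA2B1 fell by 0.25, a call lost without replicate 1 of every group (adjusted p = 0.0594). HNRNPAB shares 292 of its 1238 exon bases with PHYKPL on the opposite strand, and PHYKPL fell by 0.47 in the same comparison. HNRNPA0, HNRNPA3, HNRNPH3 and HNRNPUL1 did not pass the test.

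Of the core snRNP proteins, 4 of 8 Sm and U1 genes and 4 of 7 U2 genes fell, and none rose. SNRPA (ENSSSCG00000002998, chr6:44655718-44667220), a protein that binds a loop of U1 RNA, had 26.5, 27.0 and 26.5 RPKM at Stage 2, against 38.9, 36.1 and 42.9 RPKM at Stage 1 (log2 fold change -0.54, SE 0.08, adjusted p = 0.000333). SNRPD1 and SNRPF, subunits of the Sm ring, fell by 0.47 and 0.38 on the log2 scale. SNRPC, another protein of the U1 snRNP, fell by 0.21, a call lost without Stage 2 replicate 1 or 2 or Stage 1 replicate 1 or 2 or replicate 1 of every group (adjusted p = 0.0546 to 0.148). SF3B1 (ENSSSCG00000016075, chr15:112450396-112478073) had 190.03, 212 and 231 RPKM at Stage 2, against 286, 278 and 288 RPKM at Stage 1 (log2 fold change -0.43, SE 0.08, adjusted p = 0.00134). The other SF3B subunit genes SF3B3 and SF3B4 and the SF3A subunit gene SF3A3 fell by 0.55, 0.21 and 0.34 on the log2 scale, whereas SF3B2, SF3B6 and SNRPA1 did not pass the test.

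Among the PRPF factors 5 of 10 fell, and among the LSM proteins 4 of 8. PRPF4B, a kinase of tri-snRNP proteins, had 27.9, 32.0 and 31.4 RPKM at Stage 2, against 47.8, 52.4 and 53.8 RPKM at Stage 1 (log2 fold change -0.74, SE 0.08, adjusted p = 2.41e-05). PRPF39, a partner of the U1 snRNP, had 11.6, 14.6 and 14.8 RPKM at Stage 2, against 23.3, 20.6 and 22.6 RPKM at Stage 1 (log2 fold change -0.66, SE 0.13, adjusted p = 0.00153). LSM11, a subunit of the U7 snRNP that processes histone mRNA, had 3.74, 3.52 and 3.24 RPKM at Stage 2, against 6.04, 6.36 and 6.004 RPKM at Stage 1 (log2 fold change -0.67, SE 0.10, adjusted p = 0.000313). The libraries of these 3 genes did not overlap. PRPF19, a ubiquitin ligase of the active spliceosome, and PRPF8, its catalytic scaffold, fell by 0.46 and 0.44 on the log2 scale. LSM1, LSM3 and LSM8 fell by 0.29, 0.32 and 0.20. The call of LSM1 was lost without Stage 2 replicate 1 or 3 or Stage 1 replicate 1 or 2 or replicate 1 of every group (adjusted p = 0.0784 to 0.194), that of LSM3 without replicate 1 of every group (adjusted p = 0.0712) and that of LSM8 without Stage 2 replicate 1 or 2 or Stage 1 replicate 1, 2 or 3 or replicate 1 of every group (adjusted p = 0.0797 to 0.163). Those of LSM1 and LSM8 were also lost on both other scales and with limma-voom on the reads. PRPF38B fell by 0.46, with the reserve that a second table of IDs and names gives that row another name.

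Among the RBM proteins 7 of 20 fell and 1 rose. RBM19 (ENSSSCG00000009868, chr14:40541835-40663247), an RNA-binding protein of the nucleolus, showed the largest fall of any splicing factor gene, with 6.35, 6.01 and 5.22 RPKM at Stage 2, against 11.9, 12.2 and 12.4 RPKM at Stage 1 (log2 fold change -0.95, SE 0.09, adjusted p = 1.06e-05). RBM39, a partner of U2AF, and RBM25, a regulator of 5 prime splice sites, fell by 0.35 and 0.28 on the log2 scale. RBM45 was the single gene called higher, at 0.22, adjusted p = 0.0467, and that call was lost without Stage 2 replicate 1, 2 or 3 or Stage 1 replicate 1, 2 or 3 or replicate 1 of every group (adjusted p = 0.0523 to 0.153). RBM15, RBM15B, RBM10 and RBM18 were also called lower. These calls were lost for RBM15 without Stage 2 replicate 3 or Stage 1 replicate 2 or 3 (adjusted p = 0.0611 to 0.0674), for RBM15B without Stage 2 replicate 2 or 3 or Stage 1 replicate 2 or 3 (adjusted p = 0.0524 to 0.0769), for RBM10 without Stage 2 replicate 2 or 3 or Stage 1 replicate 1 or 2 or replicate 1 of every group (adjusted p = 0.0520 to 0.112) and for RBM18 without Stage 2 replicate 1 or 3 or Stage 1 replicate 1, 2 or 3 or replicate 1 of every group (adjusted p = 0.0532 to 0.211).

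**Figure D2:**
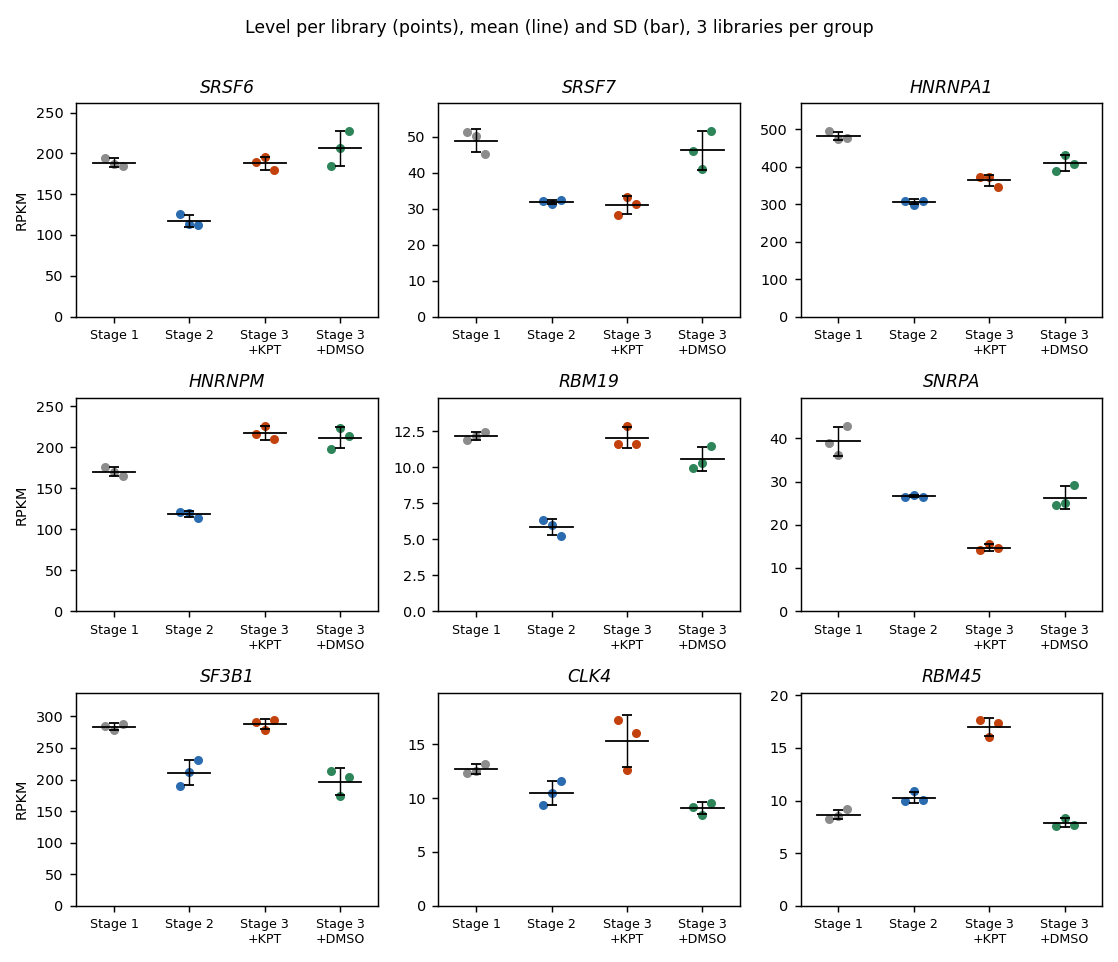
RPKM of 9 splicing factor genes in each library (points), with the mean (line) and SD (bar) of the 3 libraries of each group. The Stage 2 libraries of SRSF6, SRSF7, HNRNPA1, HNRNPM and RBM19 lie below every Stage 1 and Stage 3+DMSO library, and the Stage 3+KPT libraries of RBM45 lie above all others.

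From Stage 2 to Stage 3 with DMSO the prevailing direction turned. In Stage 3+DMSO against Stage 2, 34 of 78 splicing factor genes rose and 5 fell, against 33.0% of all tested genes higher, 11.1% lower and 44.1% called in either direction. The 5 lower genes came to 3 without Stage 3+DMSO replicate 2. The median log2 fold change of the 78 genes was 0.17, against 0.15 over all tested genes. Libraries did not overlap for 48 of the 78 genes and for 51.1% of all tested genes. Median-ratio rescaling moved the median of all genes by -0.15 and quantile normalization by -0.16. After median-ratio rescaling 24 splicing factor genes were higher and 11 lower, against 20.1% of all tested genes higher and 19.5% lower, and after quantile normalization 28 were higher and 11 lower, against 19.4% of all tested genes in each direction. The medians of the splicing factor genes were 0.01 and 0.05 on those scales. These groups differ in stage, in days of culture and in the addition of DMSO, which cannot be told apart. Proliferation markers moved in this comparison too, with a summed level of 292 to 325 RPKM in Stage 3+DMSO against 127 to 139 RPKM at Stage 2 (10 of 10 tested genes higher). Of the 10 fibroblast markers 3 were higher and 3 lower, with a summed level of 26991 to 29404 RPKM in Stage 3+DMSO against 27894 to 29077 RPKM at Stage 2. The part of both lists in the result was not tested.

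HNRNPM and SRSF6 were among the genes that rose most. HNRNPM had 198, 224 and 213 RPKM in Stage 3+DMSO, against 121, 119 and 114 RPKM at Stage 2 (log2 fold change 0.83, SE 0.06, adjusted p = 5.70e-07). SRSF6 had 184, 206 and 227 RPKM in Stage 3+DMSO, against 125, 113 and 113 RPKM at Stage 2 (log2 fold change 0.81, SE 0.08, adjusted p = 5.15e-06). Neither gene had a Stage 3+DMSO library as low as any Stage 2 library. RBM19 had 9.93, 10.3 and 11.5 RPKM, against 6.35, 6.01 and 5.22 RPKM at Stage 2 (log2 fold change 0.76, SE 0.09, adjusted p = 4.25e-05). LSM1, of the cytoplasmic LSM ring that marks mRNA for decay, had 18.6, 23.2 and 20.7 RPKM, against 10.8, 12.8 and 10.5 RPKM at Stage 2 (log2 fold change 0.82, SE 0.10, adjusted p = 4.56e-05). LSM3, shared by the cytoplasmic and the U6 rings, had 41.8, 40.8 and 45.0 RPKM, against 25.9, 24.99 and 27.5 RPKM at Stage 2 (log2 fold change 0.68, SE 0.09, adjusted p = 5.61e-05). LSM6 and LSM8, other subunits of those rings, rose by 0.38 and 0.53 on the log2 scale.

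By role, 8 of 13 hnRNP genes, 6 of 9 SR genes, 4 of 8 LSM genes, 4 of 8 Sm and U1 genes, 3 of 7 U2 genes, 3 of 10 PRPF genes and 6 of 20 RBM genes rose. The shares of the PRPF and RBM genes, 30.0% each, lay below the 33.0% of all tested genes, and that of the U2 genes was 42.9%. HNRNPAB, HNRNPA0, HNRNPA1, HNRNPF, HNRNPK and HNRNPU rose by 0.56, 0.47, 0.42, 0.39, 0.36 and 0.33 on the log2 scale. PHYKPL, the partner of HNRNPAB on the opposite strand, rose by 0.46. SRSF7 and SRSF2 rose by 0.51 and 0.36, and PRPF19, SNRPD1, SF3B3 and SF3A3 by 0.55, 0.49, 0.46 and 0.43. RBM38 was higher by 0.59, a call lost without replicate 1 of every group (adjusted p = 0.0522). SRSF1 was called at 0.17, adjusted p = 0.0222, a call lost without Stage 3+DMSO replicate 1 or Stage 2 replicate 3 or replicate 1 of every group (adjusted p = 0.0554 to 0.125), and its difference came to 0.00 after median-ratio rescaling. The median of the PRPF genes, 0.06, turned to -0.10 on both other scales, and those of the U2 and RBM genes, 0.11 and 0.16, turned negative on 1 of them each, at -0.05 and -0.01.

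CLK2 and CLK3, kinases of SR proteins, went the other way. CLK2 had 23.7, 17.4 and 21.0 RPKM in Stage 3+DMSO, against 28.2, 27.7 and 24.8 RPKM at Stage 2 (log2 fold change -0.37, SE 0.10, adjusted p = 0.00918). CLK3 fell by 0.26 on the log2 scale, a call lost without Stage 3+DMSO replicate 2 or Stage 2 replicate 1 or replicate 1 of every group (adjusted p = 0.0770 to 0.114). No CLK gene rose. PRPF40B, a U1-associated factor, had 7.06, 5.67 and 6.60 RPKM in Stage 3+DMSO, against 9.96, 9.03 and 9.78 RPKM at Stage 2 (log2 fold change -0.51, SE 0.10, adjusted p = 0.000952). RBM45 fell by 0.34 and SRSF4 fell by 0.21, the second call being lost without Stage 3+DMSO replicate 2 or 3 or Stage 2 replicate 1, 2 or 3 (adjusted p = 0.0578 to 0.172).

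Across the 3 stages, many of these genes thus had their lowest RPKM at Stage 2. The counts and sums of this paragraph were taken on the deposited RPKM and not repeated on the other scales. On those, the median change of the 78 genes from Stage 2 to Stage 3+DMSO was 0.01 and 0.05 rather than 0.17. All 3 Stage 2 libraries lay below every Stage 1 and every Stage 3+DMSO library for 30 of the 78 tested splicing factor genes, 38.5%, and for 16.6% of all tested genes. The reverse, all Stage 2 libraries above the other 6, held for 1 splicing factor gene, RBM45, and for 5.50% of all tested genes. The low point at Stage 2 was met by 9 of 13 hnRNP genes, 4 of 9 SR genes, 4 of 8 Sm and U1 genes, 3 of 7 U2 genes, 3 of 8 LSM genes, 2 of 10 PRPF genes, 5 of 20 RBM genes and 0 of 3 CLK genes. Over all 4 groups, the lowest mean was at Stage 2 for 47 of the 78 genes (60.3%), against 30.8% of all tested genes. The summed level of the 82 genes was 5563 ± 99.3 RPKM at Stage 2, against 6875 ± 124 RPKM at Stage 1 and 6610.3 ± 70.5 RPKM in Stage 3+DMSO (SD, n = 3 libraries each).

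**Figure D3:**
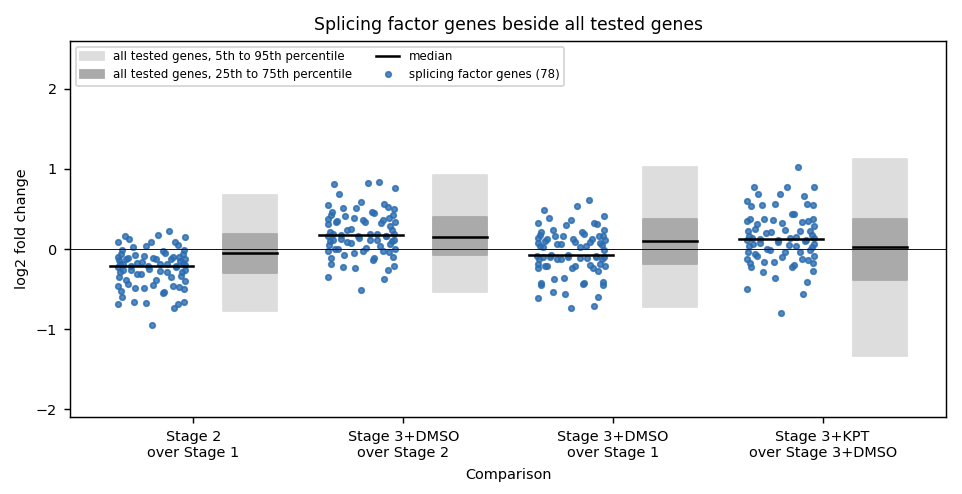
Log2 fold change of the 78 tested splicing factor genes (points, with a line at their median) beside all 13046 tested genes (light bar from the 5th to the 95th percentile, dark bar from the 25th to the 75th, line at the median) in the 4 comparisons. The points lie lower than the bar in Stage 2 over Stage 1, with medians of -0.21 and -0.05, and they span less than the bar in Stage 3+KPT over Stage 3+DMSO.

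Stage 3+DMSO and Stage 1 were also compared directly. This comparison shares its libraries with the 2 before it. In Stage 3+DMSO against Stage 1, 12 splicing factor genes were higher and 20 lower, against 30.5% of all tested genes higher, 17.3% lower and 47.7% called in either direction. The median was -0.08 for the 78 genes and 0.10 for all tested genes. Median-ratio rescaling moved the median of all genes by -0.10 and quantile normalization by -0.11. After the first, 9 splicing factor genes were higher and 32 lower, against 22.7% of all tested genes higher and 24.2% lower. After the second, 11 were higher and 28 lower, against 22.7% of all tested genes higher and 24.5% lower. Libraries did not overlap for 46 of the 78 genes, against 59.0% of all tested genes. Proliferation markers summed to 292 to 325 RPKM in Stage 3+DMSO against 325 to 361 RPKM at Stage 1, with 5 of 10 tested genes lower and 1 higher. The fibroblast markers summed to 26991 to 29404 RPKM in Stage 3+DMSO against 20472 to 21376 RPKM at Stage 1, with 7 of 10 tested genes higher and 2 lower. The part of both lists in the result was not tested.

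The genes that stayed low were led by PRPF39, with 14.7, 11.6 and 12.5 RPKM in Stage 3+DMSO, against 23.3, 20.6 and 22.6 RPKM at Stage 1 (log2 fold change -0.74, SE 0.13, adjusted p = 0.000560), and by LSM11, with 3.58, 3.05 and 3.49 RPKM, against 6.04, 6.36 and 6.004 RPKM at Stage 1 (log2 fold change -0.71, SE 0.10, adjusted p = 0.000128). CLK2 had 23.7, 17.4 and 21.0 RPKM in Stage 3+DMSO, against 31.7, 30.9 and 32.1 RPKM at Stage 1 (log2 fold change -0.60, SE 0.10, adjusted p = 0.000348), and CLK3 and CLK4 fell by 0.37 and 0.44 on the log2 scale, so that all 3 CLK genes with a named row were lower. SNRPA, PRPF4B, SF3B1, HNRNPH1, SRSF4 and SRSF11 fell by 0.56, 0.61, 0.53, 0.44, 0.42 and 0.42. The genes that ended above Stage 1 included LSM1 (0.53, adjusted p = 0.000876), HNRNPA0 (0.41, adjusted p = 0.000811), TRA2A (0.39, adjusted p = 0.000747), LSM3 (0.37, adjusted p = 0.00385), RBM8A (0.33, adjusted p = 0.00250) and HNRNPM (0.31, adjusted p = 0.000864). RBM38 was higher by 0.61, a call lost without replicate 1 of every group (adjusted p = 0.0851), and RBM34 by 0.49, a call lost without Stage 1 replicate 1 (adjusted p = 0.0558). SRSF6, SRSF7, SRSF2, PRPF19, SF3A3, SF3B3, SNRPD1 and RBM19, which had all been lower at Stage 2, did not pass the test here.

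With KPT, splicing factor genes moved in both directions. In Stage 3+KPT against Stage 3+DMSO, 29 of 78 genes rose and 12 fell, against 30.5% of all tested genes higher, 29.5% lower and 60.0% called in either direction. The median was 0.12 for the 78 genes and 0.02 for all tested genes, and neither other scale changed the number of lower genes. Libraries did not overlap for 47 genes, against 65.2% of all tested genes. A 2-fold or larger difference on the log2(RPKM + 1) scale was seen for 1 splicing factor gene (1.28%) and for 14.6% of all tested genes. The number of lower genes came to 7 without Stage 3+KPT replicate 3 and to 7 without Stage 3+DMSO replicate 2. Of the 10 tested proliferation markers 9 fell here and 1 rose, with a median log2 fold change of -3.58. Their summed level, which includes the gene that rose, was 130.3 to 136 RPKM in Stage 3+KPT against 292 to 325 RPKM in Stage 3+DMSO. The endothelial markers, of which 4 of 8 were tested, summed to 32.7 to 38.5 RPKM in Stage 3+KPT against 65.7 to 83.8 RPKM in Stage 3+DMSO, with VWF, TEK and KDR below 1 RPKM. The fibroblast markers summed to 17170 to 17734 RPKM in Stage 3+KPT against 26991 to 29404 RPKM in Stage 3+DMSO, with 3 of 10 tested genes higher and 5 lower. The part of these markers in the result was not tested.

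The SR proteins split, with 4 of 9 lower and 2 higher. SRSF7 had 28.3, 33.3 and 31.3 RPKM in Stage 3+KPT, against 46.1, 41.0 and 51.6 RPKM in Stage 3+DMSO (log2 fold change -0.56, SE 0.09, adjusted p = 0.000148). SRSF2 had 54.6, 53.6 and 54.8 RPKM in Stage 3+KPT, against 67.9, 68.7 and 74.0 RPKM in Stage 3+DMSO (log2 fold change -0.36, SE 0.06, adjusted p = 0.000117), and 489 of its 3912 exon bases are shared with METTL23 on the opposite strand. SRSF1 had 61.7, 59.6 and 60.2 RPKM in Stage 3+KPT, against 74.1, 69.5 and 68.3 RPKM in Stage 3+DMSO (log2 fold change -0.22, SE 0.05, adjusted p = 0.00308). For these 3 genes no Stage 3+KPT library reached a Stage 3+DMSO library. SRSF12 was called at -0.42, adjusted p = 0.0344, a call lost without Stage 3+KPT replicate 3 or Stage 3+DMSO replicate 1 or 2 or replicate 1 of every group (adjusted p = 0.0541 to 0.165). In the other direction, SRSF11, known to bind U2AF, had 133, 125 and 132 RPKM in Stage 3+KPT, against 96.4, 78.7 and 90.9 RPKM in Stage 3+DMSO (log2 fold change 0.55, SE 0.07, adjusted p = 2.75e-05). SRSF9 rose by 0.21, a call lost without replicate 1 of every group (adjusted p = 0.0757). SRSF6 and TRA2A differed by -0.13, adjusted p = 0.161 and by -0.12, adjusted p = 0.169.

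Of the CLK kinases, 2 of 3 rose. CLK4 (ENSSSCG00000014028, chr2:81344460-81369483) had 17.2, 12.7 and 16.1 RPKM in Stage 3+KPT, against 9.21, 8.46 and 9.54 RPKM in Stage 3+DMSO (log2 fold change 0.69, SE 0.11, adjusted p = 0.000190). CLK3 had 40.3, 46.5 and 39.2 RPKM in Stage 3+KPT, against 28.8, 25.3 and 30.6 RPKM in Stage 3+DMSO (log2 fold change 0.56, SE 0.09, adjusted p = 0.000116). The libraries of both genes did not overlap. The rise of CLK4 was uneven along the gene. Its exon 1 averaged 14.2 exon RPKM in Stage 3+KPT and 15.0 in Stage 3+DMSO, whereas exon 7 averaged 13.9 and 4.46. No exon of CLK4 was called in the exon test described below. CLK2 had 22.3, 23.8 and 21.2 RPKM in Stage 3+KPT and 23.7, 17.4 and 21.0 RPKM in Stage 3+DMSO, with overlapping libraries (log2 fold change 0.12, SE 0.10, adjusted p = 0.317). CLK1, which the gene table leaves unnamed, is described with the other such rows.

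The hnRNP proteins were lower in 5 of 13 cases and higher in 2. HNRNPA3 had 161, 155 and 149 RPKM in Stage 3+KPT, against 99.6, 93.1 and 93.9 RPKM in Stage 3+DMSO (log2 fold change 0.69, SE 0.07, adjusted p = 4.27e-06), and HNRNPK, which binds C-rich RNA, was higher by 0.23 on the log2 scale. The falls were small. HNRNPUL1 had 138, 136 and 134 RPKM in Stage 3+KPT, against 155, 158 and 155 RPKM in Stage 3+DMSO (log2 fold change -0.20, SE 0.05, adjusted p = 0.00233). HNRNPA1 was called at -0.17, adjusted p = 0.0168, a call lost without Stage 3+KPT replicate 3 or Stage 3+DMSO replicate 2 (adjusted p = 0.0700 to 0.0776). HNRNPAB was called at -0.28, adjusted p = 0.0186, a call lost without Stage 3+KPT replicate 3 or Stage 3+DMSO replicate 2 (adjusted p = 0.0780 to 0.0836). HNRNPA2B1 was called at -0.18, adjusted p = 0.0318, a call lost without Stage 3+KPT replicate 3 or Stage 3+DMSO replicate 1, 2 or 3 (adjusted p = 0.0521 to 0.140). HNRNPA0 was called at -0.22, adjusted p = 0.0229, a call lost without Stage 3+KPT replicate 1 or 3 or Stage 3+DMSO replicate 2 or 3 or replicate 1 of every group (adjusted p = 0.0517 to 0.114). Among the hnRNP genes, HNRNPUL1 was thus the fall whose call did not rest on a single library.

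The snRNP proteins changed unevenly. SNRPA fell furthest of all splicing factor genes, with 14.1, 15.6 and 14.5 RPKM in Stage 3+KPT, against 24.6, 25.1 and 29.3 RPKM in Stage 3+DMSO (log2 fold change -0.79, SE 0.08, adjusted p = 4.40e-06). Its partner in the U1 snRNP, SNRPC, rose by 0.23 on the log2 scale. SNRPG, of the Sm ring, had 121, 107 and 122 RPKM in Stage 3+KPT, against 80.3, 76.3 and 73.6 RPKM in Stage 3+DMSO (log2 fold change 0.60, SE 0.08, adjusted p = 2.47e-05). It shares 3156 of its 3559 exon bases with PCYOX1 on the opposite strand, and PCYOX1 was higher by 0.69 in the same comparison. The counting is not stated to use strand, so reads in the shared bases cannot be told apart. The last exon of SNRPG, where most shared bases lie, had 18093 reads in Stage 3+KPT and 10333 in Stage 3+DMSO. The whole SNRPG row had 25244 and 16620 reads, so most of the added reads lay in that exon. How much of the rise belongs to SNRPG was not tested. In the U2 snRNP 3 of 7 genes rose and none fell. SF3B1 had 291, 279 and 294 RPKM in Stage 3+KPT, against 214, 173 and 203 RPKM in Stage 3+DMSO (log2 fold change 0.55, SE 0.08, adjusted p = 8.90e-05). SF3B6, which contacts the branch point, had 93.8, 83.1 and 85.0 RPKM, against 60.1, 61.2 and 70.7 RPKM in Stage 3+DMSO (log2 fold change 0.44, SE 0.08, adjusted p = 0.000242), and SNRPA1, a protein of the U2 snRNP, was higher by 0.38. For SF3B1 and SF3B6 all Stage 3+KPT libraries lay above all Stage 3+DMSO libraries.

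Among the PRPF factors 6 of 10 rose and none fell. PRPF39 had 23.0, 19.0 and 26.8 RPKM in Stage 3+KPT, against 14.7, 11.6 and 12.5 RPKM in Stage 3+DMSO (log2 fold change 0.77, SE 0.13, adjusted p = 0.000231). PRPF4B and PRPF38B rose by 0.38 and 0.37, and PRPF38A and PRPF4 were called at 0.35, adjusted p = 0.0374 and at 0.22, adjusted p = 0.0301. The call of PRPF38A was lost without Stage 3+KPT replicate 1 or 2 or Stage 3+DMSO replicate 1 or 3 or replicate 1 of every group (adjusted p = 0.0556 to 0.132) and that of PRPF4 without Stage 3+KPT replicate 2 or 3 or Stage 3+DMSO replicate 2 or 3 (adjusted p = 0.0889 to 0.0996). Of the LSM proteins, LSM6 had 42.3, 44.1 and 38.8 RPKM in Stage 3+KPT, against 58.0, 60.8 and 59.1 RPKM in Stage 3+DMSO (log2 fold change -0.50, SE 0.08, adjusted p = 0.000102), and LSM8 fell by 0.27. LSM12, which belongs to no LSM ring of the spliceosome, was called at 0.35, adjusted p = 0.0118, a call lost without Stage 3+KPT replicate 1 or replicate 1 of every group (adjusted p = 0.0554 to 0.0590).

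The RBM proteins rose in 11 of 20 cases and none fell, and all 20 fold changes were above 0, as were 51.6% of those of all tested genes. RBM45 (ENSSSCG00000015996, chr15:93330063-93352165), an RNA-binding protein known from neurons, had 17.6, 16.0 and 17.4 RPKM in Stage 3+KPT, against 7.60, 8.36 and 7.68 RPKM in Stage 3+DMSO (log2 fold change 1.02, SE 0.08, adjusted p = 3.19e-07), the largest rise of any splicing factor gene. RBM18 had 41.6, 35.1 and 39.1 RPKM in Stage 3+KPT, against 21.8, 21.9 and 22.8 RPKM in Stage 3+DMSO (log2 fold change 0.77, SE 0.09, adjusted p = 1.10e-05). RBM48, of the minor spliceosome, had 5.99, 4.70 and 5.41 RPKM in Stage 3+KPT, against 3.57, 2.83 and 2.63 RPKM in Stage 3+DMSO (log2 fold change 0.67, SE 0.16, adjusted p = 0.00261). For these 3 genes the libraries did not overlap. RBM41, which also acts with the minor spliceosome, RBM5 and RBM17, which act at the 3 prime splice site, and RBM25 were higher by 0.54, 0.44, 0.33 and 0.31. RBM8A, of the exon junction complex, was higher by 0.56, and it shares 664 of its 3372 exon bases with GNRHR2 on the opposite strand, which was higher by 0.69. RBM33 and RBM6 were called at 0.36, adjusted p = 0.0212 and 0.29, adjusted p = 0.0149, and RBM33 lost its call without Stage 3+KPT replicate 1 or Stage 3+DMSO replicate 1 or 2 or replicate 1 of every group (adjusted p = 0.0782 to 0.148) and RBM6 without Stage 3+KPT replicate 1 or replicate 1 of every group (adjusted p = 0.0576 to 0.0611).

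**Figure D4:**
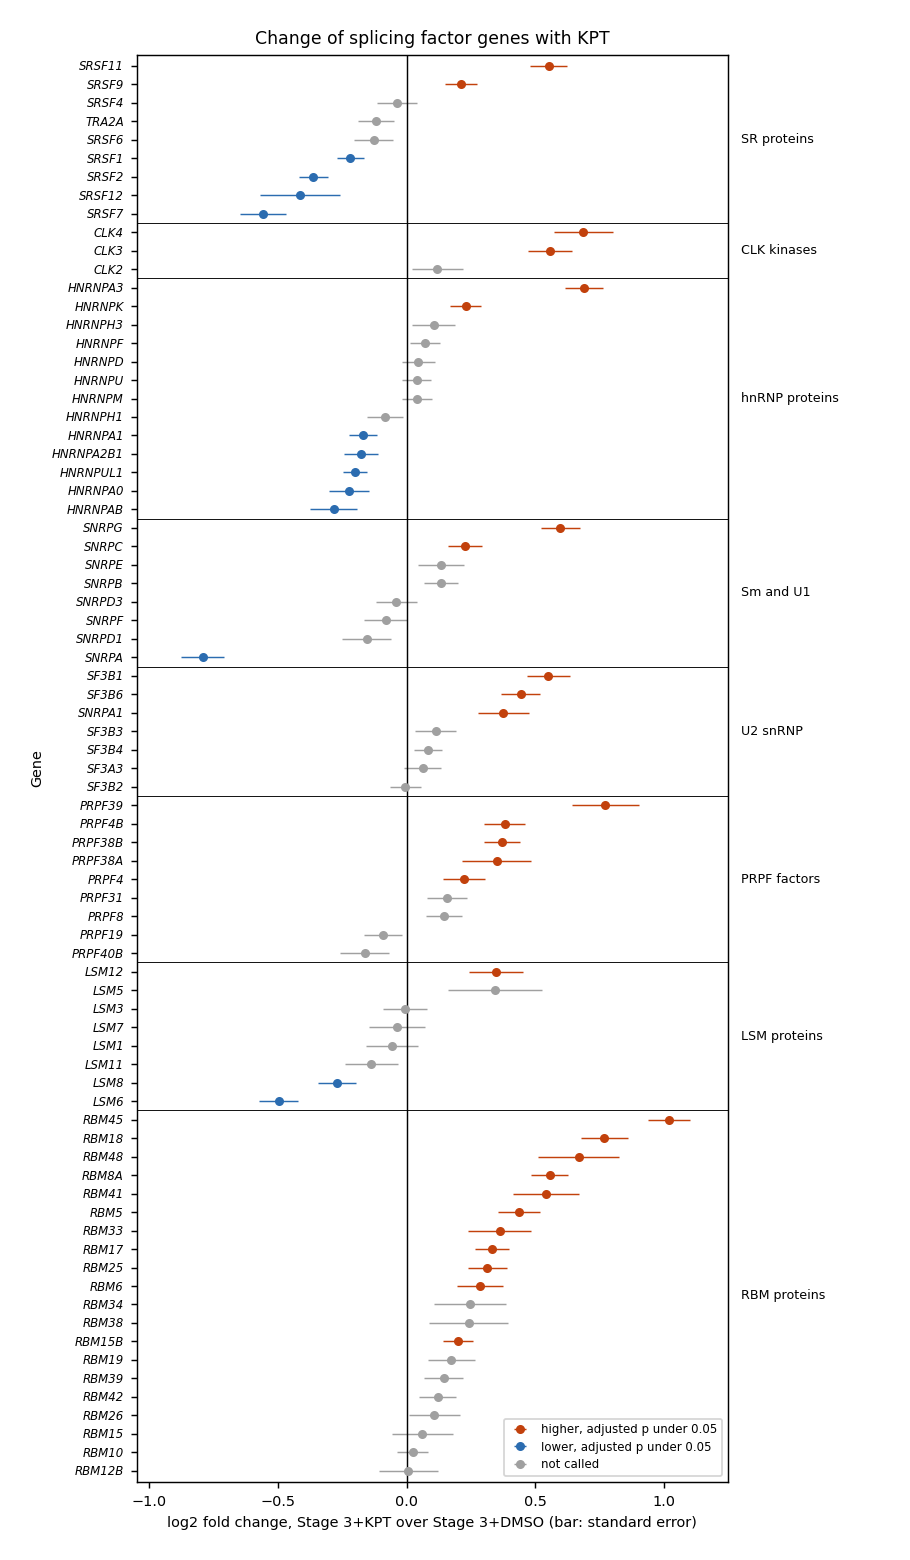
Log2 fold change of 77 tested splicing factor genes in Stage 3+KPT over Stage 3+DMSO (points, with the standard error as a bar), grouped by role and coloured by call. RBM and PRPF genes lie mostly to the right of 0, SNRPA at -0.79 is the farthest left, and the SR genes spread from -0.56 for SRSF7 to 0.55 for SRSF11.

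Levels over all 4 groups place these changes. SRSF7 averaged 49.0 ± 3.29 RPKM at Stage 1, 32.0 ± 0.570 RPKM at Stage 2, 31.0 ± 2.54 RPKM in Stage 3+KPT and 46.2 ± 5.31 RPKM in Stage 3+DMSO (SD, n = 3 libraries each), so that its Stage 2 and Stage 3+KPT libraries overlapped at the low end. SNRPA averaged 39.3 ± 3.45 RPKM at Stage 1, 26.7 ± 0.279 RPKM at Stage 2, 14.7 ± 0.758 RPKM in Stage 3+KPT and 26.3 ± 2.57 RPKM in Stage 3+DMSO, and every Stage 3+KPT library lay below the other 9. The summed level of the RBM genes was 679 ± 10.3 RPKM at Stage 1, 588 ± 8.51 RPKM at Stage 2, 810.1 ± 20.2 RPKM in Stage 3+KPT and 665 ± 23.8 RPKM in Stage 3+DMSO, with the Stage 3+KPT libraries above all others. The highest mean over the 4 groups was in Stage 3+KPT for 42 of the 78 genes (53.8%), against 41.1% of all tested genes. HNRNPA1, LSM8, RBM15B and SRSF1 were called in all 4 comparisons, although some of these calls, such as that of LSM8 at Stage 2, rested on single libraries, and HNRNPH3, LSM5, LSM7, PRPF31, RBM12B, RBM26, SF3B2 and SNRPB in none. Among the last, SNRPB, of the Sm ring, had 106 to 135 RPKM over the 12 libraries, SF3B2 had 100.02 to 118 RPKM, HNRNPH3 had 69.6 to 98.3 RPKM and PRPF31, which binds U4 RNA, had 32.2 to 46.8 RPKM. A missing call does not show that these genes were level, and LSM5 had 36.6, 25.8 and 32.7 RPKM in Stage 3+KPT and 27.7, 21.8 and 24.4 RPKM in Stage 3+DMSO.

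Exon values were examined as a readout that the choice of genes did not use. Each exon was compared with the other exons of its gene by limma's diffSplice on log2(exon RPKM + 1), over 811 exons of 75 splicing factor genes within 121506 exons of 12105 genes. In Stage 2 against Stage 1, 3 exons were called (0.370%), against 0.411% of all exons. Stage 3+DMSO gave 5 calls against Stage 2 (0.617%, against 0.434% of all exons) and 4 against Stage 1 (0.493%, against 0.421%). In Stage 3+KPT against Stage 3+DMSO, 9 exons were called, all of them higher (1.11%, against 0.954% of all exons in either direction). The directions of the calls over all exons were not counted, so this one has nothing to be set against. The test takes 1 error from all exons of a gene, so it understates the error of short exons with few reads. The 9 calls came to 5, 3, 5 and 5 without Stage 3+KPT replicate 1, Stage 3+KPT replicate 3, Stage 3+DMSO replicate 2 and Stage 3+DMSO replicate 3. The 3 calls at Stage 2 came to 6 without Stage 2 replicate 1 and to 5 without Stage 1 replicate 3. The 5 calls in Stage 3+DMSO against Stage 2 came to 3 without Stage 3+DMSO replicate 2 or 3 and to 8 without Stage 2 replicate 1, and the 4 calls against Stage 1 came to 2 without Stage 3+DMSO replicate 2 or Stage 1 replicate 3.

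Among the exons called with KPT, exon 17 of RBM25 had the largest relative change. This exon, of 19 (chr7:102247359-102247457, 99 bases, plus strand, in coordinates of a build not given in the sources used here) had 53.4, 31.9 and 67.4 exon RPKM in Stage 3+KPT, from 74, 70 and 165 reads, against 12.2, 7.02 and 12.5 exon RPKM in Stage 3+DMSO, from 24, 14 and 26 reads (relative log2 change 1.79, SE 0.28, adjusted p = 1.63e-06). Its libraries did not overlap, the call held without each library, and limma-voom on the reads called it as well (adjusted p = 4.30e-05). Relative to the level of the whole gene, exon 17 stood at 1.61, 1.03 and 2.13 in Stage 3+KPT and at 0.43, 0.30 and 0.49 in Stage 3+DMSO. The level of the whole gene is lowered by exon 19, which has low values and holds 4813 of the 7486 exon bases. These ratios therefore do not place exon 17 above its upstream neighbours. In Stage 3+KPT it averaged 50.9 exon RPKM, against 97.0 in exon 15 and 82.3 in exon 16. In Stage 3+DMSO it averaged 10.6, against 85.6 and 49.7. Exon 18 had 14.9, 7.51 and 55.6 exon RPKM in Stage 3+KPT, against 8.41, 1.03 and 3.98 exon RPKM in Stage 3+DMSO (relative log2 change 1.76, SE 0.28, adjusted p = 2.51e-06). It rested mostly on replicate 3 of Stage 3+KPT, without which its adjusted p was 0.0665, and the libraries overlapped. Exons 16 and 19 were not called, but they averaged 82.3 and 6.41 exon RPKM in Stage 3+KPT, against 49.7 and 3.34 in Stage 3+DMSO. Higher values with KPT were thus not confined to exon 17. The same exon 18 was lower in Stage 3+DMSO against Stage 2 (relative log2 change -1.66, SE 0.28, adjusted p = 2.97e-05), from 8, 1 and 4 reads in Stage 3+DMSO against 11, 8 and 12 reads at Stage 2, a call that limma-voom on the reads did not make.

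**Figure D5:**
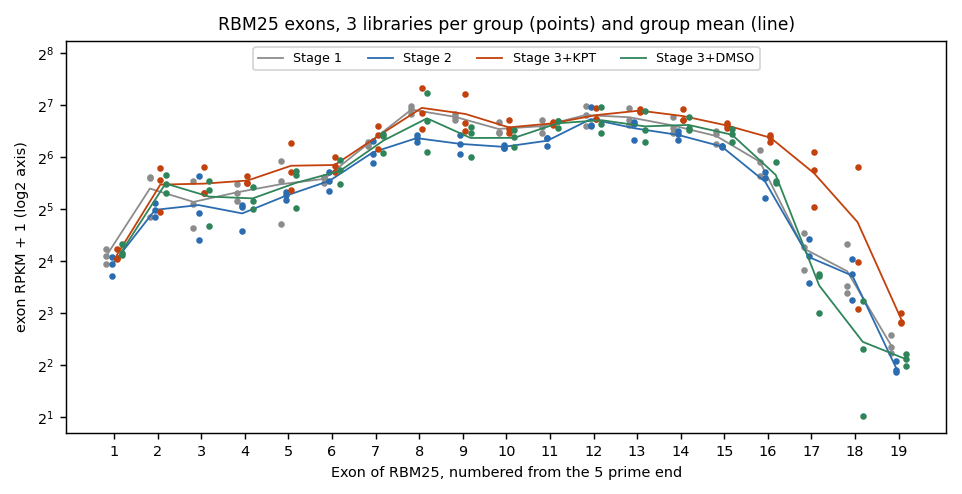
Exon RPKM + 1 on a log2 axis for the 19 exons of RBM25, numbered from the 5 prime end, in each library (points) and as group means (lines). At exon 17 the Stage 3+KPT libraries, at 31.9 to 67.4 exon RPKM, lie above all others, as they also do at exons 15, 16 and 19.

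The other exons called with KPT depended on single libraries. Exon 4 of SNRPA1 had 45.6, 43.2 and 72.3 exon RPKM in Stage 3+KPT, against 16.1, 21.1 and 20.3 exon RPKM in Stage 3+DMSO (relative log2 change 1.08, SE 0.24, adjusted p = 0.00447), and lost its call without Stage 3+KPT replicate 3 (adjusted p = 0.205). Exon 12 of SF3B1 had 186, 167 and 223 exon RPKM in Stage 3+KPT, against 109, 78.1 and 93.6 exon RPKM in Stage 3+DMSO (relative log2 change 0.48, SE 0.13, adjusted p = 0.0304), and lost it without Stage 3+KPT replicate 1 or 3 or Stage 3+DMSO replicate 2 or 3 (adjusted p = 0.0664 to 0.439). Exon 1 of SRSF7 and exon 1 of CLK2 had at most 23 reads in any Stage 3+KPT or Stage 3+DMSO library. Their calls were lost without Stage 3+KPT replicate 1, among others, and the exon of CLK2 lies wholly within bases shared with HCN3 on the opposite strand. The last exons of SNRPG, RBM39 and RBM8A were called by 0.59, 0.53 and 0.46 on the log2 scale, and each call was lost without Stage 3+KPT replicate 3, among others (adjusted p = 0.196, 0.541 and 0.190). The last exon of SNRPG, of 3212 bases, makes up most of the gene and so of the bases shared with PCYOX1, and RBM8A shares bases with GNRHR2, as given above. Limma-voom on the reads also called the exons of SNRPG, RBM8A, SF3B1 and RBM39 (adjusted p = 7.98e-05, 0.000960, 0.0184 and 0.0206). It did not call exon 18 of RBM25 or those of SNRPA1, SRSF7 and CLK2 (adjusted p = 0.147, 0.0775, 0.391 and 0.381). Beside these stands a difference between libraries, since the median log2 ratio of last to first exon in 61 splicing factor genes was 0.23 ± 0.07 in Stage 3+KPT, against -0.15 ± 0.08 in Stage 3+DMSO, and in 7470 genes 0.38 ± 0.04 against 0.21 ± 0.01 (SD over the 3 libraries). Its part in the exon results was not tested.

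At the earlier stages, exon 11 of HNRNPUL1, of 23 bases, had 41.4, 77.7 and 30.7 exon RPKM at Stage 2, against 204, 72.8 and 98.6 exon RPKM at Stage 1 (relative log2 change -1.35, SE 0.14, adjusted p = 1.45e-12). Replicate 2 of Stage 2 lay within the range of Stage 1. The same exon was higher in Stage 3+DMSO, at 156, 129.6 and 143 exon RPKM, against Stage 2 (relative log2 change 1.47, SE 0.14, adjusted p = 1.15e-14), where the libraries did not overlap. The annotated exons 9, 10, 12, 13 and 15 around exon 11 had 0 exon RPKM in every library, so the exon borders there are uncertain. Exon 5 of HNRNPK was lower at Stage 2 and higher in Stage 3+DMSO, on at most 12 reads in any library of those 3 groups, and both calls were lost without Stage 2 replicate 3, among others (adjusted p = 0.476 and 0.525).

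A further 14 IDs of the same families have no name in the gene table and were named through a table of IDs, so they stand outside the 82 genes. Of the 13 that were tested, 6 were lower at Stage 2 than at Stage 1, 5 higher in Stage 3+DMSO than at Stage 2, and 4 higher and 4 lower with KPT. The genes lower at Stage 2 made up 46.2% of the 13, against 24.4% of all tested genes, and those higher in Stage 3+DMSO than at Stage 2 made up 38.5%, against 33.0%. With KPT they made up 30.8% in each direction, near the 30.5% higher and 29.5% lower of all tested genes. SRSF3, the smallest SR protein, had 121, 123 and 127 RPKM at Stage 2, against 177, 171 and 192 RPKM at Stage 1 (log2 fold change -0.54, SE 0.06, adjusted p = 1.93e-05). In Stage 3+KPT it had 167, 160.3 and 154 RPKM, against 197, 190.1 and 199 RPKM in Stage 3+DMSO (log2 fold change -0.28, SE 0.06, adjusted p = 0.000855). CLK1 had 109.97, 91.7 and 94.8 RPKM in Stage 3+KPT, against 54.1, 54.9 and 53.4 RPKM in Stage 3+DMSO (log2 fold change 0.85, SE 0.10, adjusted p = 1.37e-05), a rise without overlap, as in CLK3 and CLK4. Compared with Stage 1, CLK1 was lower by 0.41 at Stage 2 (adjusted p = 0.00746) and by 0.32 in Stage 3+DMSO (adjusted p = 0.0229). RBM3, a protein induced by cold, had 243, 237 and 247 RPKM in Stage 3+KPT, against 316, 321 and 328 RPKM in Stage 3+DMSO (log2 fold change -0.41, SE 0.07, adjusted p = 0.000216), and it fell by 0.54 at Stage 2 against Stage 1. SF3A1 and PRPF3 fell by 0.29 and 0.58 at Stage 2, and RBM7 and PRPF18 were higher with KPT by 0.73 and 0.62. A second ID of LSM8 on chromosome 18 moved with the row of LSM8 in every comparison. The reads of the LSM8 row and of this ID summed to 3593 and 3585 at Stage 1 and to 5139 and 4974 in Stage 3+DMSO. With totals so close, the second ID should not be read as separate evidence. Whether these rows share reads was not tested. HNRNPC, HNRNPDL, LSM2, LSM4, SRSF5, TRA2B, U2AF1 and U2AF2 were not analysed here.

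Other genes of the pathway were counted in lists. Of 38 tested spliceosome factors outside the 82 genes, 16 fell and 0 rose at Stage 2 against Stage 1 (median -0.16), 23 rose and 1 fell in Stage 3+DMSO against Stage 2 (median 0.30), 11 rose and 5 fell in Stage 3+DMSO against Stage 1 (median 0.10), and 22 rose and 3 fell in Stage 3+KPT against Stage 3+DMSO (median 0.27). Of all tested genes, 16.3% rose and 24.4% fell at Stage 2, 33.0% rose and 11.1% fell in Stage 3+DMSO against Stage 2, 30.5% rose and 17.3% fell against Stage 1, and 30.5% rose and 29.5% fell with KPT. In the spliceosome list the share higher in Stage 3+DMSO than at Stage 1 was 28.9%, near that of all genes, and the share higher with KPT was 57.9%. DDX46, a helicase of the U2 snRNP, had 26.1, 24.9 and 28.3 RPKM at Stage 2, against 51.3, 49.8 and 48.5 RPKM at Stage 1 (log2 fold change -0.89, SE 0.07, adjusted p = 2.29e-06). With KPT, the PRPF19 complex subunit PLRG1 and CWC22, which brings EIF4A3 to the spliceosome, rose by 0.98 and 0.96, and the helicase and export factor DDX39B fell by 0.66 on the log2 scale. Of 26 tested splicing regulators, 14 fell and 1 rose at Stage 2, led by CELF2 (-1.35), 13 rose and 1 fell in Stage 3+DMSO against Stage 2, 4 rose and 5 fell against Stage 1, and 6 rose and 6 fell with KPT, with MBNL1 at 0.70 and MBNL3 at -0.71. Of the regulators, 15.4% were higher and 19.2% lower in Stage 3+DMSO than at Stage 1, and 23.1% were called in each direction with KPT. The shares higher in both comparisons and lower with KPT lay below those of all tested genes. PTBP1, a repressor of exons, had 154, 154 and 148 RPKM at Stage 2, against 223, 232 and 229.6 RPKM at Stage 1 (log2 fold change -0.58, SE 0.06, adjusted p = 2.04e-05). Of 14 tested genes of the exon junction complex and nonsense-mediated decay, 9 fell at Stage 2, 9 rose in Stage 3+DMSO against Stage 2, 4 rose and 4 fell against Stage 1, and 5 rose and 2 fell with KPT. In that list 28.6% were higher against Stage 1 and 35.7% with KPT, near the shares of all genes.

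Among the genes that move snRNPs, XPO1 and SNUPN changed with KPT. XPO1, the export receptor that carries newly made U snRNA out of the nucleus with the adaptor PHAX, had 116, 97.3 and 137 RPKM in Stage 3+KPT, against 26.7, 22.4 and 21.8 RPKM in Stage 3+DMSO (log2 fold change 2.25, SE 0.16, adjusted p = 9.99e-08). SNUPN, the import adaptor that XPO1 returns to the cytoplasm, had 15.0, 12.2 and 11.3 RPKM in Stage 3+KPT, against 31.5, 29.1 and 25.4 RPKM in Stage 3+DMSO (log2 fold change -1.10, SE 0.10, adjusted p = 1.28e-06). Neither gene had overlapping libraries. At Stage 2 SNUPN was higher than at Stage 1 by 0.47. In all, 8 of the 17 tested genes of snRNP assembly, export and import rose with KPT and 1 fell, whereas 1 rose and 5 fell at Stage 2, 9 rose and 0 fell in Stage 3+DMSO against Stage 2, and 6 rose and 2 fell against Stage 1. The share higher with KPT was 47.1%, against 30.5% of all tested genes, whereas the share lower at Stage 2, 29.4%, and the share higher against Stage 1, 35.3%, were near those of all tested genes, 24.4% and 30.5%. Of the 6 tested kinases and import factors of SR proteins, 1 rose and 2 fell at Stage 2, 3 rose in Stage 3+DMSO against Stage 2 and 1 against Stage 1, and 4 rose with KPT and none fell, among them DYRK1A (0.59) and SRPK2 (0.35), while SRPK1 had 36.0, 33.7 and 34.9 RPKM in Stage 3+KPT and 47.9, 38.2 and 36.5 RPKM in Stage 3+DMSO and did not pass the test. With 6 genes in the list, its 4 higher with KPT are 66.7%, against 30.5% of all tested genes, and its 2 lower at Stage 2 are 33.3%, against 24.4%.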

How the data were processed

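Libraries were made from 500 ng of total RNA with a stranded mRNA kit, per the labels' protocols. The submitters' processing notes name TopHat2 2.1.0. Counter, build, annotation and strand setting: not given in the sources used here. RPKM per gene and per exon were computed by the authors and deposited in 2 tables. RPKM times exon length and an implied library total gave whole reads for 100% of values (tolerance 0.0001 reads), so limma-voom on those reads was an alternative. Summed over genes, these reads came to 1.75 to 1.81 times the implied total of their library. The reason is not known, so reads and totals may not be in the same unit. Genes and exons with at least 1 RPKM in at least 3 libraries were tested on log2(RPKM + 1) with limma 3.58.1 (R 4.3.3), 12 libraries in 1 fit, with Benjamini-Hochberg adjustment over 13046 genes or 121506 exons and calls at 0.05. Fold changes on this scale understate the change of low genes. The fit was tested on simulated data. Named were the 6 largest called changes per direction and comparison, the most abundant gene of each role, and a panel of known regulators. Others were named to complete the roles, after their values were seen. The genes and lists were chosen with earlier results of these data known. Replicate numbers were not taken to pair the libraries. Some genes counted here are not reported by name. Sequences were not used here.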

Additional observations from a re-analysis of the deposited data

How the results depend on the processing

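Of the calls of splicing factor genes, 29 of 40 in Stage 2 against Stage 1, 26 of 39 in Stage 3+DMSO against Stage 2, 24 of 32 in Stage 3+DMSO against Stage 1 and 29 of 41 in Stage 3+KPT against Stage 3+DMSO were kept under every alternative tried, and 0 reversed. The 1 gene called higher at Stage 2 came to 2 after median-ratio rescaling and to 0 in a fit of the 2 groups alone, with limma-voom on the reads, with a replicate block and whenever a library was left out. In Stage 3+DMSO against Stage 2, 11 genes rather than 5 were lower after median-ratio rescaling or quantile normalization, and 3 in a fit of the 2 groups alone. In Stage 3+DMSO against Stage 1, 32 rather than 20 were lower after median-ratio rescaling. Leaving out libraries gave 32 to 35, 17 to 21 and 7 to 12 genes lower at Stage 2, in Stage 3+DMSO against Stage 1 and with KPT, 3 to 7 lower and 28 to 32 higher in Stage 3+DMSO against Stage 2, and 11 to 16 and 25 to 28 higher in Stage 3+DMSO against Stage 1 and with KPT. The called exons depended most on the method. At Stage 2 the 3 exons came to 5 with a pseudocount of 0.1, to 1 with limma-voom, and to 2 to 6 without single libraries. In Stage 3+DMSO against Stage 2 the 5 exons came to 3 with a minimum exon RPKM of 5 or of 10 reads, to 1 with limma-voom, and to 3 to 8 without single libraries. Against Stage 1 the 4 exons came to 1 with either minimum, to 2 with limma-voom, and to 2 to 5 without single libraries. With KPT the 9 exons came to 18 with limma-voom and to 3 to 13 without single libraries. The causes were not tested. Same-numbered libraries correlated between -0.071 and 0.075 in their deviations from the group means, so the numbers were not taken to pair them, although in Stage 3+DMSO against Stage 1 and with KPT every library correlated best with its own number. The replicate block moved no other count of genes by over 1.5 times. Depth limits RBM38, with as few as 36 reads in a library, and short exons.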
